A study of Rattus norvegicus with 8 samples.

Results

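Epidural lidocaine was added to imiquimod in rats, and the RNA of their dorsal root ganglia was compared with that of rats given imiquimod alone. The members are all 775 genes that the submitters listed for lidocaine against IMQ, of the 4351 genes listed in either deposited table of the series. Of them, 215 are not listed for IMQ against untreated rats and are treated as a group of their own, and 560 stand in both tables. Each difference is the mean of the lidocaine libraries minus the mean of the IMQ libraries, on the scale log2(normalized count + 1), so a negative difference means less RNA under lidocaine.

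All rats were Sprague Dawley animals of 250 g. The IMQ group (n = 3) had imiquimod on the back skin for 6 days, the lidocaine group (n = 2) had this too and also received 1% lidocaine epidurally over 4 days, starting on day 3, and ganglia were taken on day 7. Both groups compared here therefore carry the imiquimod treatment, and the untreated WT group (n = 3) enters only as values set beside theirs. These are given for few genes, and whether the other genes lay nearer to WT under lidocaine is not reported here. The sample labels describe no epidural injection without drug, so injection and drug cannot be told apart, and they do not say that each library came from a separate rat, so the p-values rest on a spread between samples that may be technical.

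Imiquimod activates Toll-like receptor 7 and, applied to skin, gives an inflammation used as a model of psoriasis. Lidocaine blocks voltage-gated sodium channels and so stops the firing of sensory axons. The ganglion that holds the cell bodies of these axons also holds satellite glia, Schwann cells, resident macrophages and blood vessels, and is wrapped in tissue continuous with the meninges. In whole ganglia, fewer cells of a type and less RNA per cell cannot be told apart.

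The table is a selection: no listed gene differed by less than 1 between the group means, and levels of genes it does not list were not analysed here. Of the 13 defining markers of sensory neurons fixed for the check of the tissue, none is listed for this comparison. In the other table the IMQ libraries held the neurofilament gene Nefm at 17.64, 17.61 and 17.61, peripherin (Prph) at 15.78, 15.69 and 15.68 and gamma-synuclein (Sncg) at 16.26, 16.41 and 16.24. These 3 of the 13 markers are listed there, each lower in IMQ than in WT. The WT libraries held Nefm at 18.30, 18.77 and 18.93, Prph at 16.11, 16.89 and 17.42 and Sncg at 17.05, 17.84 and 18.41. The lidocaine libraries could not be checked this way. Of 5 satellite glia markers Glul is listed, and of 5 Schwann cell markers none. Over the listed genes the IMQ libraries held 723443 to 778890 reads and the lidocaine libraries 254922 and 370620, and the depth relative to the mean of the 5 libraries, from the submitters' normalization, was 0.929 to 1.07.

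Among the 775 genes, 702 were lower under lidocaine and 73 were higher. In limma's test with Benjamini-Hochberg adjustment over all listed genes, 675 passed as lower (87.1%) and 58 as higher (7.48%) at an adjusted p under 0.05. Of the 702 lower genes 96.2% passed, so a list whose genes all fell or all passed lies near the background of this table. Libraries of both groups did not overlap for 760 genes (98.1%), which is the background against which any single gene's separation has to be read. Genes with 0 reads in all libraries of a group depend on the added count of 1, and with those at their bound of 3 reads per library the medians below were -1.48 and 1.31. The median difference was -1.52 among the lower genes and 1.54 among the higher ones. Lidocaine replicate 1 was the lowest of the 5 libraries for 467 genes and lidocaine replicate 2 for 235. Without lidocaine replicate 1, 364 lower and 23 higher genes passed, and without lidocaine replicate 2, 479 and 27. Without IMQ replicate 3, 500 and 30 passed. Genes named below that lost their call when the fit left out 1 library are given with that library and the adjusted p without it.

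**Figure D1:**
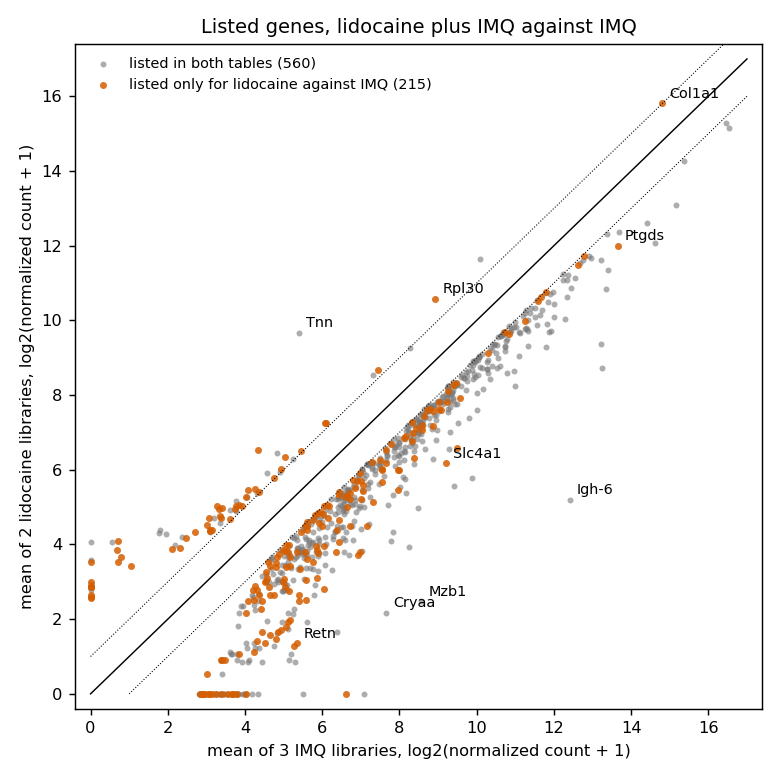
Mean level of each of the 775 listed genes in the 3 IMQ libraries (x axis) and the 2 lidocaine libraries (y axis), both as log2(normalized count + 1). The solid line marks equal levels and the dotted lines a difference of 1 either way; 702 genes lie below and 73 above, and genes listed only in this table (orange, 215) lie on both sides.

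Genes of antibody-secreting cells were among the largest decreases of the table. Igh-6, the heavy chain of immunoglobulin M, was at 11.91, 12.80 and 12.53 in IMQ libraries 1, 2 and 3 and at 5.65 and 4.74 in lidocaine libraries 1 and 2, beside 3.44 ± 0.13 (SD, n = 3) in WT. Every IMQ value lay at least 6.25 above every lidocaine value, and the group means differed 149-fold (difference -7.22, SE 0.38, adjusted p = 0.000175). Mzb1, an endoplasmic reticulum protein that aids antibody assembly, was at 8.60, 8.49 and 8.59 in IMQ and 2.84 and 2.12 in lidocaine (difference -6.08, SE 0.34, adjusted p = 0.000175). Jchain, which links immunoglobulin M and A into polymers, was at 9.96, 9.83 and 9.88 in IMQ and 6.53 and 5.06 in lidocaine (difference -4.09, SE 0.42, adjusted p = 0.00248). Mzb1 and Jchain were nearly level across the IMQ libraries, while lidocaine replicate 1 lay above replicate 2 in all 3 genes. The transcription coactivator Pou2af1 stood at 7.83, 7.65 and 7.89 in IMQ and 3.74 and 4.47 in lidocaine (difference -3.69, SE 0.33, adjusted p = 0.00205). Irf4, a factor that plasma cells need, was at 6.71, 6.86 and 7.06 in IMQ and 5.05 and 4.67 in lidocaine (difference -2.02, SE 0.31, adjusted p = 0.0042). Light chain genes went the same way. The 2 IDs annotated as lambda-chain C1-region-like passed. The more abundant one was at 8.58, 8.46 and 8.42 in IMQ and 5.72 and 4.24 in lidocaine and the other at 5.43, 5.20 and 5.18 in IMQ and 2.57 and 0 in lidocaine; they may share reads, and they were chosen after their values were seen. Ighg, the gamma heavy chain, was at 3.71, 3.14 and 4.34 in IMQ and 0 in both lidocaine libraries, at least 3.7-fold lower against a floor of 3 reads per library.

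Genes of B cells before the plasma cell stage were lower as well, and 5 of them are not listed for IMQ against WT. The B cell receptor subunit Cd79b was at 6.55, 6.43 and 6.11 in IMQ and 4.28 and 3.31 in lidocaine (difference -2.57, SE 0.42, adjusted p = 0.0045). Its partner Cd79a, listed in both tables, was at 6.61, 6.04 and 5.92 in IMQ and 4.68 and 5.11 in lidocaine (difference -1.30, SE 0.37, adjusted p = 0.0168). No lidocaine value of these genes reached an IMQ value, and the groups did not overlap for 98.1% of all listed genes either. Ms4a1 (CD20), the Src-family kinase Blk and the transcription factor Spib fell by 2.21, 2.12 and 1.51. In all, 13 of the 34 symbols of the B and plasma cell list are listed and 13 fell, with a median of -2.21 against -1.44 over all listed genes. Cd79a and Ms4a1 missed the threshold without lidocaine replicate 1 (adjusted p = 0.0757 to 0.1).

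T cell and cytotoxic lymphocyte genes were lower in both lidocaine libraries. All 22 listed genes of the 43 symbols fell, with a median of -1.81 (-1.78 with Xcl1, at 0 in both lidocaine libraries, set at its bound), and all 22 are also listed for IMQ against WT. Il2rb, a receptor chain for interleukins 2 and 15, was at 7.75, 8.17 and 8.02 in IMQ and 6.20 and 6.20 in lidocaine (difference -1.78, SE 0.25, adjusted p = 0.00345). Cxcr6, a chemokine receptor of tissue T and natural killer cells, was at 5.65, 5.94 and 5.79 in IMQ and 2.84 and 2.45 in lidocaine (difference -3.15, SE 0.37, adjusted p = 0.00266). Ctsw, a cathepsin of cytotoxic cells, was at 6.33, 6.31 and 6.47 in IMQ and 4.46 and 4.54 in lidocaine (difference -1.87, SE 0.31, adjusted p = 0.00453). The lidocaine libraries differed by less than 0.4 in each of these genes, less than the distance to the nearest IMQ library. In some genes of the list lidocaine libraries 1 and 2 lay further apart, as in Cd3d (0 and 1.69), Cd247 (4.28 and 2.45) and Icos (3.27 and 4.32). The costimulatory receptor Icos fell by 2.77 (SE 0.45), the signalling subunits Cd3d, Cd3e, Cd3g and Cd247 by 3.23, 1.64, 1.89 and 2.33, and the regulatory T cell factor Foxp3 by 1.79. Summed over the list, IMQ libraries held 3072 to 3682 normalized counts and lidocaine libraries 1035 and 1151. Cd3d and Foxp3 lost the call without lidocaine replicate 1 (adjusted p = 0.0506 to 0.0562).

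Macrophage genes fell by a smaller median. The 18 listed genes of 43 symbols all passed, with a median of -1.32, where 87.1% of all listed genes passed as lower. Vsig4, a complement receptor of resident macrophages, had the largest difference and was at 6.47, 7.04 and 6.55 in IMQ and 3.98 and 3.46 in lidocaine (difference -2.97, SE 0.37, adjusted p = 0.00294). The haemoglobin scavenger receptor Cd163 was at 10.80, 11.77 and 11.42 in IMQ and 9.04 and 9.59 in lidocaine (difference -2.02, SE 0.35, adjusted p = 0.00477). The lectin Clec10a was at 11.30, 11.84 and 11.54 in IMQ and 9.81 and 9.96 in lidocaine (difference -1.67, SE 0.25, adjusted p = 0.00391). IMQ replicate 2 was the highest library for all 3 genes. Timd4, which binds phosphatidylserine on dying cells, and the transglutaminase F13a1 are not listed for IMQ against WT and fell by 2.78 and 1.15. Fcgr2b, the inhibitory receptor for immunoglobulin G, was at 11.15, 11.46 and 11.20 in IMQ and 9.86 and 9.73 in lidocaine (difference -1.48, SE 0.22, adjusted p = 0.00396). The summed level of the list was 122731, 153536 and 135464 normalized counts in IMQ and 49562 and 57475 in lidocaine. Most of it came from 1 gene, Lyz2, at 16.34, 16.73 and 16.52 in IMQ and 15.10 and 15.19 in lidocaine (difference -1.38, SE 0.49, adjusted p = 0.0313). Its calls with a library left out are not reported here. Xcr1, a chemokine receptor known from cross-presenting dendritic cells, was at 6.17, 7.12 and 6.53 in IMQ and 4.53 and 4.15 in lidocaine (difference -2.27, SE 0.40, adjusted p = 0.00494). Its ligand Xcl1, of the T cell and cytotoxic lymphocyte list, was at 3.41, 4.15 and 2.89 in IMQ and at 0 in both lidocaine libraries, at least 3.11-fold lower. Timd4 did not pass without lidocaine replicate 1 (adjusted p = 0.119). F13a1 missed the threshold without lidocaine replicate 1 or IMQ replicate 3 (adjusted p = 0.0502 to 0.0671).

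**Figure D2:**
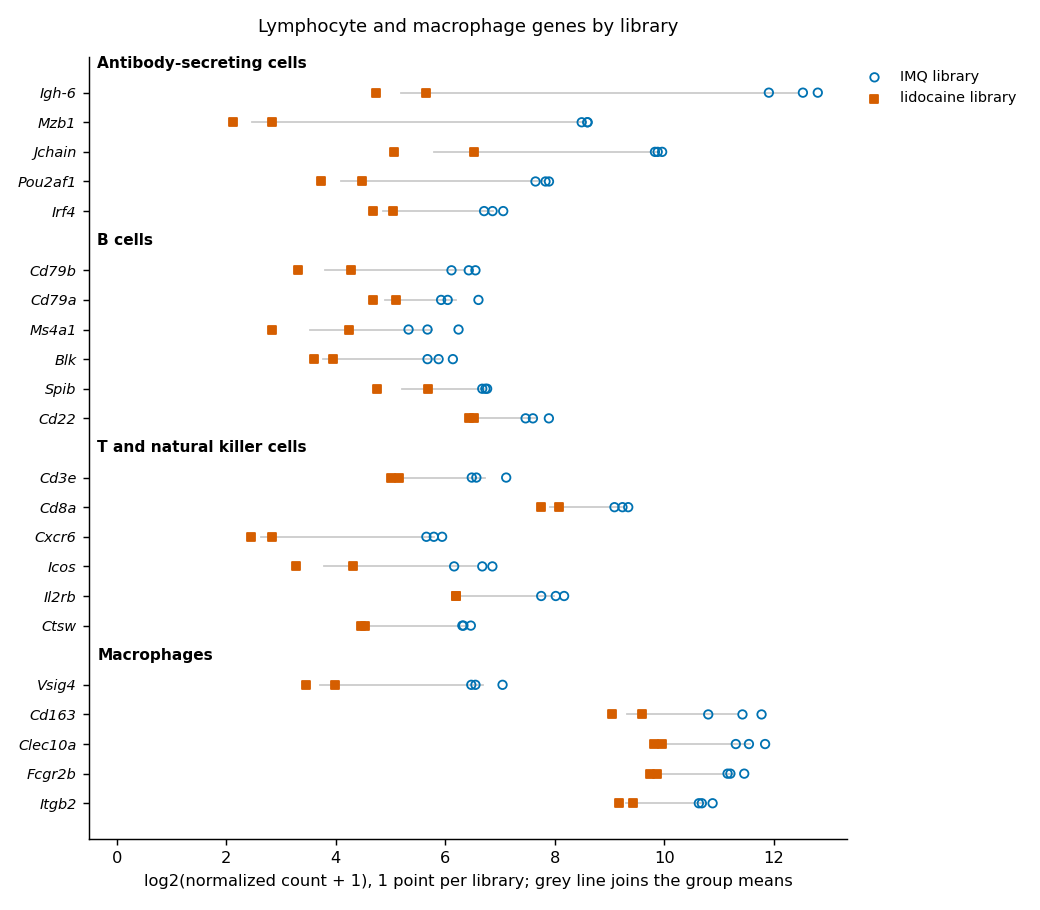
Levels of 22 lymphocyte and macrophage genes in each library, as log2(normalized count + 1) on the x axis, with IMQ libraries as open circles and lidocaine libraries as squares; grey lines join the group means. For every gene shown, both squares lie left of all 3 circles, with the widest gaps for Igh-6 and Mzb1. The groups did not overlap for 98.1% of all listed genes.

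Granulocyte genes were lower too, but here the IMQ libraries were uneven. Of 36 symbols 20 are listed. All 20 fell, with a median of -1.65, and 19 of them passed (95%, against 87.1% of all listed genes). IMQ replicate 2 lay below IMQ replicate 1 by a median of 1.23 in the 20 genes. The number called dropped to 5 without lidocaine replicate 1 and to 10 without lidocaine replicate 2. Fcnb, a ficolin of neutrophil granules, was at 10.27, 10.48 and 10.30 in IMQ and 7.97 and 8.88 in lidocaine (difference -1.93, SE 0.31, adjusted p = 0.00437). The chemokine receptor Cxcr2 was at 8.20, 8.12 and 8.16 in IMQ and 6.88 and 7.20 in lidocaine (difference -1.12, SE 0.23, adjusted p = 0.0068). Both were even across the IMQ libraries. Cd177, a neutrophil surface protein, was at 6.98, 5.89 and 6.28 in IMQ and 0 and 3.31 in lidocaine (difference -4.73, SE 0.95, adjusted p = 0.00652), with no read in lidocaine replicate 1. Padi4, which citrullinates histones in neutrophils, was the gene of the list that did not pass (-1.65, SE 0.76). The summed level of the list was 18081, 10322 and 12351 normalized counts in IMQ and 4635 and 5257 in lidocaine. Of 15 phagocyte oxidase and lysosomal protease symbols 4 are listed and 4 fell. Cathepsin E (Ctse) was at 7.84, 8.29 and 8.17 in IMQ and 5.69 and 5.91 in lidocaine (difference -2.31, SE 0.27, adjusted p = 0.00266), and Ctss, Rac2 and Ctsw fell by 1.19, 1.06 and 1.87.

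Of the 20 listed neutrophil and marrow genes 5 (25%) stand only in this table, against 27.7% of all listed genes, and among them are granule proteins made in maturing marrow granulocytes. The granule proteases Elane and Prtn3 stand in both tables and fell by 1.61 and 1.26. Myeloperoxidase (Mpo) was at 8.39, 6.35 and 7.21 in IMQ and 4.87 and 5.40 in lidocaine (difference -2.18, SE 0.59, adjusted p = 0.0148). Cathepsin G (Ctsg) was at 6.91, 5.02 and 6.18 in IMQ and 1.79 and 3.85 in lidocaine (difference -3.22, SE 0.79, adjusted p = 0.0109). The alpha-defensins Defa7, Defa5 and RatNP-3b fell by 2.502, 2.08 and 2.01; they are close paralogs, so single values are uncertain. Defa7 was at 9.07, 7.48 and 7.37 in IMQ and 5.20 and 5.74 in lidocaine. IMQ replicate 1 was the highest library for Mpo, Ctsg and the 3 defensins. Cebpe, a transcription factor of granulocyte maturation, fell by 2.90. Gfi1, another such factor, was at 3.83, 3.14 and 3.99 in IMQ and 0 in both lidocaine libraries, at least 3.41-fold lower, and was chosen after its values were seen. Elane, Prtn3, RatNP-3b and Cebpe lost the call without lidocaine replicate 1 or 2 or IMQ replicate 1 or 3 (adjusted p = 0.052 to 0.352). Mpo, Defa7 and Defa5 did not pass without lidocaine replicate 1 or 2 (adjusted p = 0.0568 to 0.139). Ctsg missed the threshold without lidocaine replicate 1 (adjusted p = 0.105).

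Of 22 symbols for mast cells, basophils and eosinophils 5 are listed and 5 fell. Eosinophil peroxidase (Epx) was at 7.71, 5.07 and 6.34 in IMQ and 3.98 and 4.79 in lidocaine (difference -1.98, SE 0.76, adjusted p = 0.0409). Major basic protein (Prg2) was at 8.26, 6.82 and 7.59 in IMQ and 5.34 and 6.71 in lidocaine (difference -1.53, SE 0.56, adjusted p = 0.0342). Mcpt8, a protease of basophils in mice, was at 7.70, 6.29 and 6.97 in IMQ and 3.27 and 4.32 in lidocaine (difference -3.20, SE 0.54, adjusted p = 0.0046). All 3 are absent from the other table, and IMQ replicate 1 was again the highest. The other listed genes, Cma1 and Siglec8, fell by 1.67 and 1.02 and stand in both tables. Epx and Prg2 lost the call without lidocaine replicate 1 or 2 or IMQ replicate 1 or 3 (adjusted p = 0.0537 to 0.284). Cma1 did not pass without lidocaine replicate 1 or IMQ replicate 3 (adjusted p = 0.0621 to 0.1). Siglec8 missed the threshold without lidocaine replicate 1 or IMQ replicate 1 or 3 (adjusted p = 0.0511 to 0.15).

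Erythroid genes were lower, and most of them are absent from the IMQ against WT table. All 15 listed genes of 53 symbols fell (median -2.24), and 10 of them stand only in this table. The red cell anion exchanger Slc4a1 was at 8.49, 9.65 and 9.47 in IMQ and 5.25 and 7.10 in lidocaine (difference -3.03, SE 0.60, adjusted p = 0.00637). The erythroid nuclear protein Hemgn was at 5.79, 7.88 and 7.08 in IMQ and 2.57 and 4.85 in lidocaine (difference -3.21, SE 0.84, adjusted p = 0.0131). The blood group protein Kel was at 6.29, 7.40 and 6.50 in IMQ and 4.19 and 4.79 in lidocaine (difference -2.24, SE 0.45, adjusted p = 0.00645). In contrast to the marrow granulocyte genes, IMQ replicate 1 was the lowest of the IMQ libraries and lidocaine replicate 2 the higher of the lidocaine libraries. Nfe2, a transcription factor of red cell and platelet precursors, was at 7.95, 7.60 and 7.42 in IMQ and 5.91 and 6.48 in lidocaine (difference -1.46, SE 0.31, adjusted p = 0.00718). Rhd, the Rh blood group antigen, fell by 2.61 (SE 0.45). The platelet collagen receptor Gp6 fell by 1.56, as 1 of 3 listed genes of 18 platelet symbols. Summed over the list IMQ libraries held 17570, 67513 and 45584 normalized counts and lidocaine libraries 3842 and 11368. The 2 IDs of the haemoglobin gene Hba-a2 made up most of these sums. The more abundant was at 13.50, 15.48 and 14.91 in IMQ and 11.23 and 12.93 in lidocaine. Their calls with a library left out are not reported here. The 10 genes only in this table summed to 1012, 1850 and 1448 in IMQ and 227 and 400 in lidocaine. None of the 15 genes was at 0 in both lidocaine libraries. Without lidocaine replicate 1, 5 of the 15 passed. These red cell, granulocyte and lymphocyte markers were lower under lidocaine, as were 702 of the 775 listed genes. Within the IMQ group they did not move together. The median of IMQ replicate 2 minus replicate 1 was 0.97 in the erythroid and -1.23 in the neutrophil list. It was -0.11 in the B and plasma cell list and 0.22 in the T cell list. The part of these markers in the other decreases was not tested. Slc4a1, Hemgn and Kel lost the call without lidocaine replicate 1 (adjusted p = 0.0519 to 0.131).

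Adipocyte genes were lower as well. All 7 listed genes of 52 adipocyte symbols fell (median -2.08, or -2.06 with Rbp7 at its bound), and 5 of them are absent from the other table. The fatty acid carrier Fabp4 was at 8.52, 7.42 and 7.92 in IMQ and 5.85 and 6.13 in lidocaine (difference -1.96, SE 0.37, adjusted p = 0.0055). The adipokine Adipoq was at 7.16, 5.41 and 6.75 in IMQ and 3.27 and 4.85 in lidocaine (difference -2.38, SE 0.69, adjusted p = 0.0174). Plin1, which coats lipid droplets, fell by 2.08 and resistin (Retn) by 3.98. Complement factor D (Cfd), also called adipsin, stands in both tables and was at 10.33, 9.75 and 10.04 in IMQ and 8.84 and 8.24 in lidocaine (difference -1.501, SE 0.29, adjusted p = 0.00574). The summed level of the list was 2049, 1181 and 1532 normalized counts in IMQ and 538 and 438 in lidocaine, and Rbp7 was at 0 in both lidocaine libraries; whether the amount of fat on the ganglia contributed was not tested. Without lidocaine replicate 1, 2 of the 7 passed. Cilp, a matrix protein of cartilage and other connective tissue, was at 9.51, 9.34 and 9.61 in IMQ and 5.97 and 7.19 in lidocaine (difference -2.91, SE 0.37, adjusted p = 0.00297). The membrane-bound ligand ephrin B3 (Efnb3), only in this table, was at 8.23, 5.83 and 7.39 in IMQ and 4.61 and 4.40 in lidocaine (difference -2.65, SE 0.68, adjusted p = 0.0122). Fabp4, Plin1 and Retn did not pass without lidocaine replicate 1 (adjusted p = 0.0562 to 0.1). Adipoq missed the threshold without lidocaine replicate 1 or IMQ replicate 1 (adjusted p = 0.0519 to 0.164). Efnb3 lost the call without lidocaine replicate 1 or 2 (adjusted p = 0.101 to 0.108).

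Transporters of the meninges fell together with enzymes of retinoid and prostaglandin synthesis. Over all listed genes 87.1% passed as lower, the background for the count that follows. The 18 listed genes of 47 symbols all passed, with a median of -1.54, but 5 did without lidocaine replicate 1, 7 without lidocaine replicate 2 and 11 without IMQ replicate 3. The organic cation exporter Slc47a1 was at 10.07, 9.62 and 9.75 in IMQ and 6.72 and 8.03 in lidocaine (difference -2.44, SE 0.40, adjusted p = 0.00452). The GABA and betaine transporter Slc6a12 was at 6.92, 6.35 and 6.18 in IMQ and 4.61 and 4.32 in lidocaine (difference -2.02, SE 0.37, adjusted p = 0.00532). The sulfate transporter Slc13a4 was at 10.60, 9.97 and 10.20 in IMQ and 8.82 and 8.55 in lidocaine (difference -1.57, SE 0.26, adjusted p = 0.00453). In each of the 3, every IMQ library lay above both lidocaine libraries by at least 1.15. Slc6a13, a close relative of Slc6a12, fell by 1.96 (SE 0.36). Aldh1a2, which makes retinoic acid, was at 11.10, 8.84 and 10.05 in IMQ and 7.44 and 7.75 in lidocaine (difference -2.41, SE 0.61, adjusted p = 0.0119). Prostaglandin D synthase Ptgds, listed only here, was at 14.05, 13.31 and 13.59 in IMQ and 11.64 and 12.37 in lidocaine (difference -1.65, SE 0.38, adjusted p = 0.00905). The summed level of the list was 50857, 25280 and 34807 normalized counts in IMQ and 10328 and 13546 in lidocaine, with none of its 18 genes at 0 in both lidocaine libraries; the part of attached meningeal tissue was not tested. Slc6a13 did not pass without lidocaine replicate 2 (adjusted p = 0.0505). Aldh1a2 missed the threshold without lidocaine replicate 1 or 2 (adjusted p = 0.0885 to 0.122). Ptgds lost the call without lidocaine replicate 1 (adjusted p = 0.0671).

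**Figure D3:**
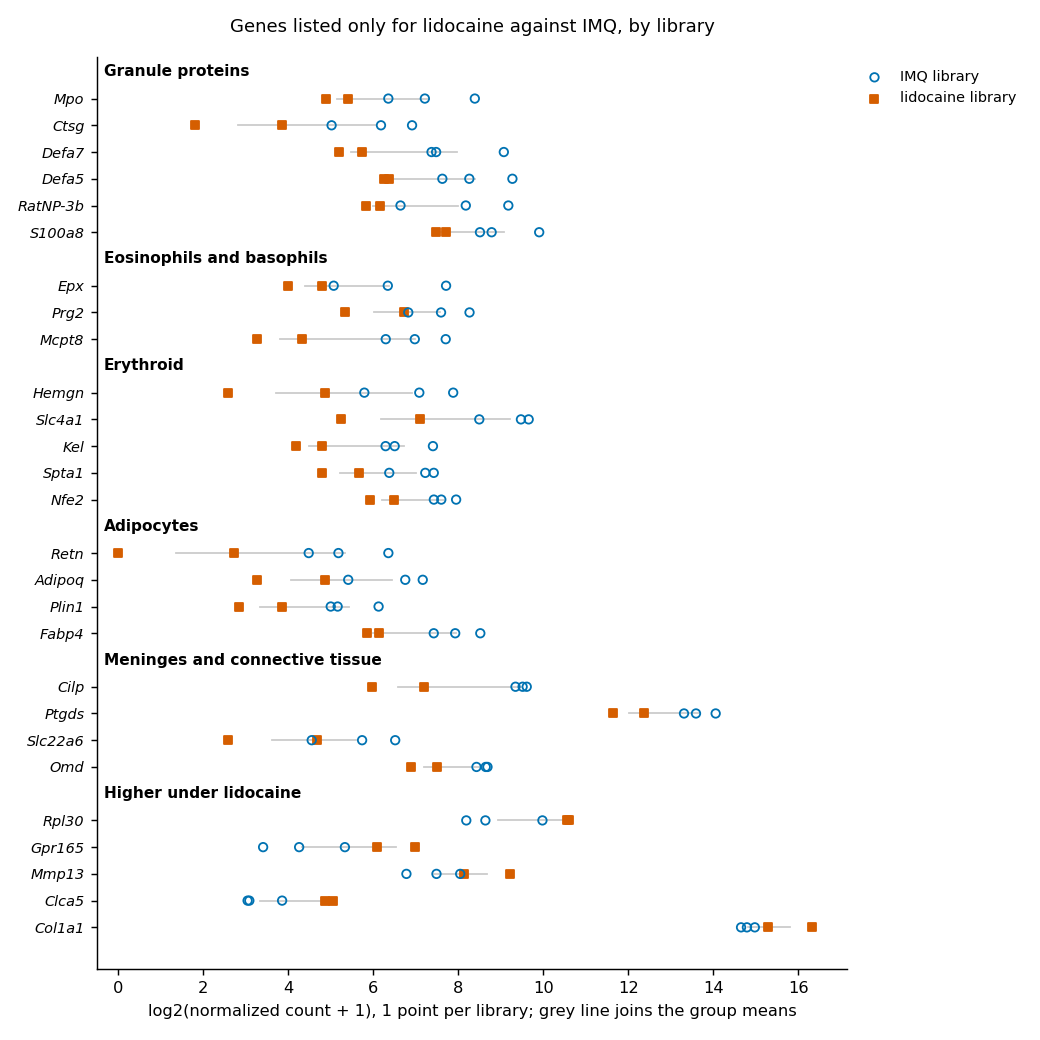
Levels of 27 genes listed for lidocaine against IMQ and not for IMQ against WT, as log2(normalized count + 1) per library (open circles, IMQ; squares, lidocaine; grey lines join the group means). The genes in all but the last block lie lower in both lidocaine libraries, except that Slc22a6 overlaps, and the bottom rows show genes that were higher.

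Of 33 cytokine symbols of the psoriasis axis 12 are listed. All 12 fell, with a median of -1.97, and 10 of them passed (83.3%, against 87.1% of all listed genes). Their IMQ levels differed widely between libraries. Il1b was at 11.88, 9.51 and 10.95 in IMQ and 8.76 and 8.43 in lidocaine (difference -2.19, SE 0.64, adjusted p = 0.0178). Il1a was at 8.41, 5.20 and 7.40 in IMQ and 4.68 and 4.15 in lidocaine (difference -2.59, SE 0.89, adjusted p = 0.0289). The neutrophil attractant Cxcl1, of the chemokine list, was at 10.04, 7.90 and 9.002 in IMQ and 6.43 and 7.72 in lidocaine (difference -1.91, SE 0.66, adjusted p = 0.0302). IMQ replicate 1 was highest and IMQ replicate 2 lowest for each, and the distance between them exceeded the difference between the groups. Il36b, an interleukin 1 family cytokine raised in psoriatic skin, is listed only here and was at 4.42, 4.24 and 3.99 in IMQ and 2.23 and 0 in lidocaine (difference -3.10, SE 0.68, adjusted p = 0.00788). Tnf was at 5.07, 5.52 and 4.73 in IMQ and 0 and 3.46 in lidocaine (difference -3.37, SE 0.97, adjusted p = 0.0171). In both genes 1 lidocaine library held no read, lidocaine replicate 2 for Il36b and replicate 1 for Tnf. Il24, a cytokine of the interleukin 10 family, fell by 2.32. The decoy receptor Il1r2 was steadier, at 8.93, 8.27 and 8.40 in IMQ and 7.32 and 7.06 in lidocaine (difference -1.34, SE 0.28, adjusted p = 0.00707). The antagonist Il1rn was at 11.17, 10.43 and 10.62 in IMQ and 9.14 and 9.49 in lidocaine (difference -1.43, SE 0.29, adjusted p = 0.00676). The alarmin receptor Il1rl1 and the alarmin Tslp did not pass, with differences of -1.13 and -1.02. The number called in the list dropped to 3 without lidocaine replicate 1, 5 without lidocaine replicate 2 and 6 without either IMQ replicate 1 or IMQ replicate 3. Il1b did not pass without lidocaine replicate 1 or 2 (adjusted p = 0.123 to 0.151). Il1a and Cxcl1 missed the threshold without lidocaine replicate 1 or 2 or IMQ replicate 1 or 3 (adjusted p = 0.0556 to 0.273). Tnf and Il1rn lost the call without lidocaine replicate 1 (adjusted p = 0.0556 to 0.0592). Il24 did not pass without lidocaine replicate 2 (adjusted p = 0.0779).

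Among 57 chemokine and receptor symbols 19 are listed and 19 fell (median -1.89, or -1.74 with Xcl1 and Ccr8 at their bounds; 12 without lidocaine replicate 1). Ccr1, a receptor of monocytes and neutrophils, was at 8.67, 8.97 and 8.88 in IMQ and 6.88 and 7.32 in lidocaine (difference -1.74, SE 0.25, adjusted p = 0.00341). Cxcl2, another neutrophil attractant, spread widely between IMQ libraries, at 11.10, 7.28 and 9.89 in IMQ and 4.93 and 6.22 in lidocaine (difference -3.85, SE 1.06, adjusted p = 0.0151). Ackr2, a decoy receptor that clears chemokines, and Ccr7, which guides lymphocytes and dendritic cells to lymph nodes, stand only in this table and fell by 2.38 and 2.01. Cxcl2 missed the threshold without lidocaine replicate 1 or 2 (adjusted p = 0.0853 to 0.164).

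NF-kB is the transcription factor downstream of Toll-like, interleukin 1 and tumour necrosis factor receptors, and Nfkbia encodes the inhibitor that it induces against itself. The 6 genes given next are linked to this pathway and were picked after their values were seen, so they say nothing of the pathway as a whole. Nfkbia, listed only here, was at 12.14, 11.23 and 11.61 in IMQ and 10.45 and 10.81 in lidocaine (difference -1.03, SE 0.33, adjusted p = 0.0232). The ubiquitin-editing enzyme Tnfaip3 was at 9.63, 8.73 and 9.29 in IMQ and 7.98 and 8.07 in lidocaine (difference -1.19, SE 0.30, adjusted p = 0.012). Birc3, an inhibitor of apoptosis, was at 9.42, 8.86 and 9.12 in IMQ and 7.78 and 7.73 in lidocaine (difference -1.38, SE 0.24, adjusted p = 0.00508). In all 3, IMQ replicate 1 was highest and IMQ replicate 2 lowest, as for Il1b, Il1a and Cxcl1 and unlike Tnf, Il24 and Il36b. Nfkbiz, Bcl3 and the RNase Zc3h12a fell by 1.51, 1.09 and 1.20. Nfkbia lost the call without lidocaine replicate 1 or 2 or IMQ replicate 3 (adjusted p = 0.0672 to 0.148). Tnfaip3 and Zc3h12a did not pass without lidocaine replicate 1 or 2 (adjusted p = 0.0676 to 0.0884). Nfkbiz missed the threshold without lidocaine replicate 1 (adjusted p = 0.122). Bcl3 lost the call without lidocaine replicate 2 (adjusted p = 0.0608).

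The promoters of Cxcl1, Cxcl2, Nfkbia and Tnfaip3 are shown as 2 chemokine and 2 inhibitor genes that fell and hold the motif known for NF-kB; they were chosen for that, and promoters of the other genes of the group are not shown. Each runs 5′ to 3′ from 250 bases before to 50 bases after the gene's start in RefSeq, build GRCr8. Capitals mark GGG and TTTCC with any 2 letters between them, on either strand, with no overlap between matches. Cxcl1 is from chr14:17479272-17479571, Cxcl2 from chr14:17467206-17467505, Nfkbia from chr6:78597023-78597322 and Tnfaip3 from chr1:15543930-15544229, each on the minus strand.
Cxcl1: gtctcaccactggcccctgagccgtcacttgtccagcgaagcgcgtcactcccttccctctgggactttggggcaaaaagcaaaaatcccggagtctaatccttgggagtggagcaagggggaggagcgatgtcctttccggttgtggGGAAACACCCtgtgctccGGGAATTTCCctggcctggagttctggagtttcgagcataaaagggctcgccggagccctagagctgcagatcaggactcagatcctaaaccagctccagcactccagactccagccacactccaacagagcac
Cxcl2: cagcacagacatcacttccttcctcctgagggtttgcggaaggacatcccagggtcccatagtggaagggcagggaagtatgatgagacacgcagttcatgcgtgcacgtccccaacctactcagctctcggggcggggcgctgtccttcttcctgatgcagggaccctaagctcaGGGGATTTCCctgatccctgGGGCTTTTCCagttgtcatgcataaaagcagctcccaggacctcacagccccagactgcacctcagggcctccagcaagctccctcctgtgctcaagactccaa
Nfkbia: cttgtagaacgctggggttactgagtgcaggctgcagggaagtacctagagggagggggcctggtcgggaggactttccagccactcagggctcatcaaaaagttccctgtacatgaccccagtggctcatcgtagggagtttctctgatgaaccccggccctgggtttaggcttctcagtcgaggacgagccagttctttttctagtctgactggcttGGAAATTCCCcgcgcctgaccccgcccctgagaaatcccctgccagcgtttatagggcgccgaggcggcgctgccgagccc
Tnfaip3: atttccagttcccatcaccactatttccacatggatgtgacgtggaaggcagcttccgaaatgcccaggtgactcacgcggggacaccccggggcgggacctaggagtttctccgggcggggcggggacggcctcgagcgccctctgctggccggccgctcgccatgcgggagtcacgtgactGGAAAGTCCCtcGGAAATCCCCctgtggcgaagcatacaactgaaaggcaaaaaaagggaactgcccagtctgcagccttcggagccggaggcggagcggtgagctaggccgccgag
The motif occurred 2 times in Cxcl1, Cxcl2 and Tnfaip3 and 1 time in Nfkbia. Over all 27457 promoters 1.51% held it. Promoters were found for 475 of the 775 members by symbol, and 20 of 417 called lower (4.8%) and 3 of 30 called higher (10%) held it.

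Genes of antigen presentation had a different order of libraries. All 17 listed genes of 36 symbols fell (median -1.98), but IMQ replicate 2 was above IMQ replicate 1 by a median of 0.95. Ciita, the regulator that switches on class II genes, was at 8.85, 9.92 and 9.77 in IMQ and 7.60 and 6.88 in lidocaine (difference -2.27, SE 0.40, adjusted p = 0.00492). Cd74, the chaperone of class II molecules, was at 14.60, 15.59 and 15.28 in IMQ and 13.36 and 12.83 in lidocaine (difference -2.07, SE 0.45, adjusted p = 0.00761). The class II chain RT1-Da was at 12.83, 13.87 and 13.49 in IMQ and 11.61 and 11.06 in lidocaine (difference -2.06, SE 0.39, adjusted p = 0.00571). The 2 IDs named RT1-DMb, a chain of the peptide-loading factor, fell by 1.43 and 1.24. RT1-Db2, the single gene of the list that is absent from the other table, was at 4.84, 5.20 and 5.30 in IMQ and 3.86 and 0 in lidocaine; RT1 genes are near-identical copies and uncertain one by one. The number called dropped to 11 without lidocaine replicate 1 and to 10 without lidocaine replicate 2. The order IMQ replicate 2, 3, 1 held for Ciita, Cd74 and RT1-Da, the reverse of that for Il1b, Il1a and Cxcl1. Cd74 did not pass without lidocaine replicate 2 (adjusted p = 0.0611). RT1-Db2 missed the threshold without lidocaine replicate 2 or IMQ replicate 1 or 3 (adjusted p = 0.0505 to 0.0566).

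Complement and acute phase genes were lower and even. All 15 listed genes of 46 symbols fell, with a median of -1.19, and all are also listed for IMQ against WT. Socs3, the feedback inhibitor of interleukin 6 family signalling, was at 10.81, 10.38 and 10.60 in IMQ and 8.98 and 8.56 in lidocaine (difference -1.83, SE 0.25, adjusted p = 0.00314). The interleukin 6 receptor Il6r was at 10.04, 10.01 and 10.05 in IMQ and 8.93 and 8.96 in lidocaine (difference -1.09, SE 0.19, adjusted p = 0.00517). The metalloreductase Steap4 was at 12.84, 12.34 and 12.48 in IMQ and 11.17 and 11.09 in lidocaine (difference -1.42, SE 0.27, adjusted p = 0.00545). Il6r was nearly level within each group. Of 51 interferon response symbols, 3 are listed here and 43 for IMQ against WT. Irf8, a factor of monocytes and dendritic cells, was at 10.71, 10.99 and 10.9998 in IMQ and 9.71 and 9.73 in lidocaine (difference -1.18, SE 0.22, adjusted p = 0.00532), while Gbp3 and Irf1 fell by 1.78 and 1.02. Of 29 Toll-like receptor and inflammasome symbols 8 are listed and 8 fell, among them Tlr10, at 8.23, 8.62 and 8.56 in IMQ and 6.97 and 7.37 in lidocaine (difference -1.30, SE 0.26, adjusted p = 0.00632). The nucleic acid receptor Tlr9 fell by 1.22, the lipopeptide receptor Tlr6 by 1.02 and Cd14, a co-receptor for lipopolysaccharide, by 1.10. With 1 library left out, 3 to 8 of these 8 passed, the fewest without lidocaine replicate 1. Gbp3 and Cd14 lost the call without lidocaine replicate 1 or IMQ replicate 3 (adjusted p = 0.0502 to 0.0883). Irf1 and Tlr9 did not pass without lidocaine replicate 1 or 2 or IMQ replicate 3 (adjusted p = 0.0594 to 0.116).

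Adhesion molecules of inflamed vessels were lower by similar amounts. E-selectin (Sele) was at 8.70, 8.56 and 8.60 in IMQ and 6.97 and 7.42 in lidocaine (difference -1.42, SE 0.24, adjusted p = 0.0046). Icam1 was at 11.39, 10.79 and 11.11 in IMQ and 9.76 and 9.62 in lidocaine (difference -1.41, SE 0.25, adjusted p = 0.00522). Vcam1 was at 10.39, 10.71 and 10.57 in IMQ and 9.38 and 9.73 in lidocaine (difference -1.001, SE 0.23, adjusted p = 0.00906). All 3 bind leukocytes on the vessel wall. None of their lidocaine values reached an IMQ value, and the groups did not overlap for 98.1% of all listed genes either. P-selectin (Selp), also of platelets, was at 11.63, 10.61 and 11.10 in IMQ and 9.80 and 9.54 in lidocaine (difference -1.44, SE 0.33, adjusted p = 0.00939). On the leukocyte side, the integrin Itgb2 was at 10.88, 10.63 and 10.68 in IMQ and 9.16 and 9.42 in lidocaine (difference -1.44, SE 0.22, adjusted p = 0.00396). Mmrn1, a multimerin of vessels and platelets, is listed only here and was at 8.83, 9.05 and 8.76 in IMQ and 6.58 and 7.75 in lidocaine (difference -1.72, SE 0.37, adjusted p = 0.00742). These 5 vascular genes are those listed of 36 symbols; the endothelial identity genes Pecam1, Cdh5 and Tek are not listed for this comparison. Selp missed the threshold without lidocaine replicate 1 or 2 (adjusted p = 0.0617 to 0.0755).

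**Figure D4:**
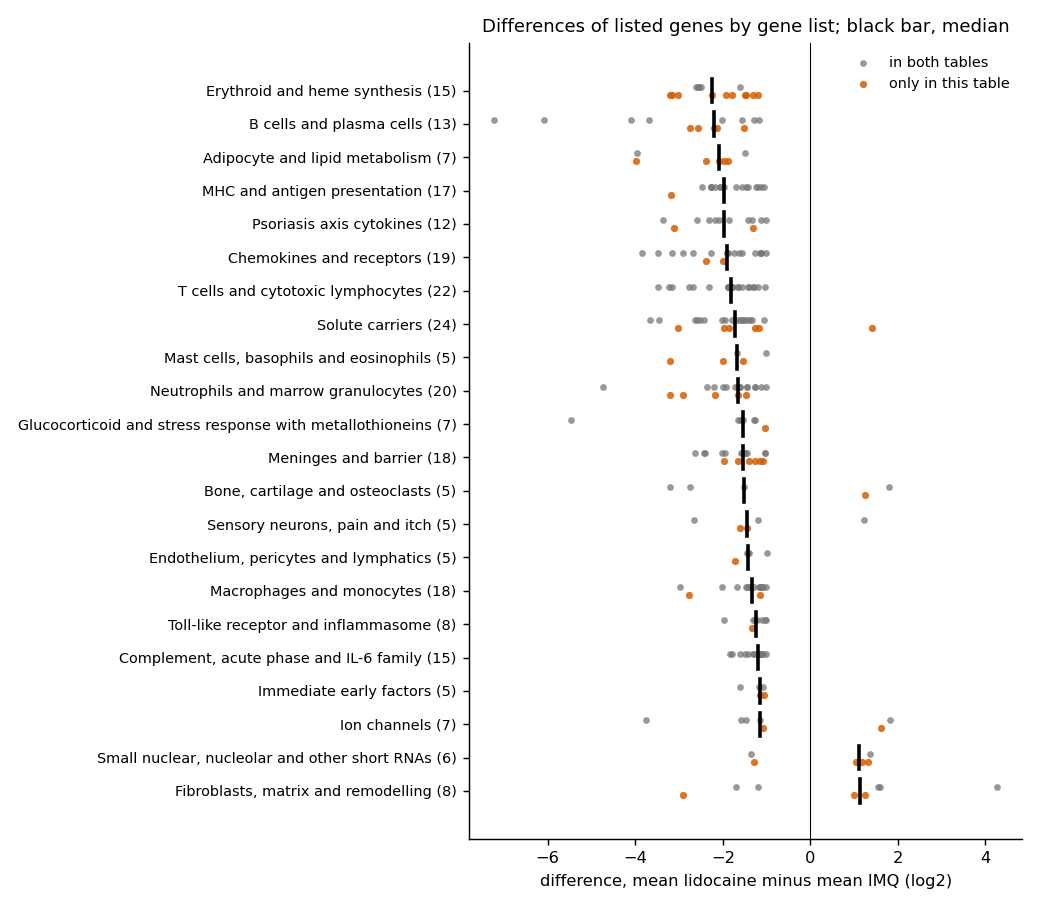
Difference in mean log2(normalized count + 1), lidocaine minus IMQ, for each listed gene of the lists with at least 5 listed genes (number in brackets), with black bars at the medians. Grey points stand in both tables and orange points only in this one. Medians run from -2.24 for erythroid genes to 1.12 for the matrix list, and the matrix and short RNA lists are those with a median above 0.

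Stress-response genes included the metallothioneins, small cysteine-rich proteins that bind zinc and copper. Mt2A was at 11.06, 10.46 and 10.66 in IMQ and 9.03 and 9.34 in lidocaine (difference -1.54, SE 0.26, adjusted p = 0.00462). Mt1m was at 9.50, 9.11 and 9.29 in IMQ and 7.35 and 8.03 in lidocaine (difference -1.61, SE 0.28, adjusted p = 0.00486). Mt1 was at 7.34, 6.89 and 7.18 in IMQ and 5.79 and 5.94 in lidocaine (difference -1.28, SE 0.28, adjusted p = 0.00807). The 3 genes kept the same order of IMQ libraries, 1 above 3 above 2, and lidocaine replicate 2 was above replicate 1. As close paralogs they may share reads. The promoters of Mt1 and Mt2A are shown because metallothioneins are known for repeated metal response elements; capitals mark the core TGCNCNC on either strand, with no overlap between matches. Both are from GRCr8, minus strand, Mt1 at chr19:10832926-10833225 and Mt2A at chr19:10838659-10838958.
Mt1: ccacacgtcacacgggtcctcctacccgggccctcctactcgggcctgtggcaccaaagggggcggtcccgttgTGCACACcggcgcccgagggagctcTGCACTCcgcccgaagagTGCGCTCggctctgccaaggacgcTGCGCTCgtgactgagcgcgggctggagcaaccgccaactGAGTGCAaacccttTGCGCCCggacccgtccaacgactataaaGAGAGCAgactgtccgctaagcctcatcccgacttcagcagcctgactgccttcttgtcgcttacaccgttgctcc
Mt2A: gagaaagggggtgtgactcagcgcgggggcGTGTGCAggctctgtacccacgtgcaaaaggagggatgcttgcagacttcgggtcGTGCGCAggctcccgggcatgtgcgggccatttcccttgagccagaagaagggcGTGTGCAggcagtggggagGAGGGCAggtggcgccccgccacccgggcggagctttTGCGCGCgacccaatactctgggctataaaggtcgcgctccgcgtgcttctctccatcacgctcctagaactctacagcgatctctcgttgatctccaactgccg
The core occurred 7 times in Mt1 and 5 times in Mt2A, and 50.1% of all 27457 promoters held it at least 1 time. Cryaa, the lens chaperone alpha-A crystallin, had the largest difference of the stress list and was at 8.75, 6.35 and 7.82 in IMQ and 2.23 and 2.12 in lidocaine (difference -5.46, SE 0.69, adjusted p = 0.00294). Zbtb16 and Hif3a, known targets of the glucocorticoid receptor, fell by 1.26 and 1.66. Of 35 immediate early symbols 5 are listed: Klf4, only in this table, was at 9.79, 9.21 and 9.41 in IMQ and 8.28 and 8.36 in lidocaine (difference -1.15, SE 0.25, adjusted p = 0.00735), and Fosl2, Zfp36, Junb and Ctgf fell by 1.60, 1.17, 1.07 and 1.05. Between 1 and 5 of these 5 passed with 1 library left out, the fewest without lidocaine replicate 1. Zbtb16 lost the call without lidocaine replicate 2 (adjusted p = 0.0685). Hif3a and Junb did not pass without lidocaine replicate 1 or 2 or IMQ replicate 3 (adjusted p = 0.0538 to 0.148). Fosl2 and Ctgf missed the threshold without lidocaine replicate 1 or IMQ replicate 1 or 3 (adjusted p = 0.0749 to 0.244). Zfp36 lost the call without lidocaine replicate 1 (adjusted p = 0.0515).

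Glial genes were listed sparsely. Gfap, an intermediate filament of reactive satellite glia, was at 12.04, 12.64 and 12.37 in IMQ and 11.38 and 10.76 in lidocaine (difference -1.27, SE 0.31, adjusted p = 0.0113). Mlc1, a membrane protein known from astrocytes, was at 8.24, 7.38 and 7.91 in IMQ and 3.98 and 4.67 in lidocaine (difference -3.52, SE 0.39, adjusted p = 0.00266). Cldn11, a tight junction protein of myelin and of the arachnoid, fell by 1.502. Glul, the glutamine synthetase of satellite glia, was at 15.82, 14.91 and 15.35 in IMQ and 14.29 and 14.27 in lidocaine and did not pass (adjusted p = 0.0518). Of 40 symbols for satellite glia, Schwann cells and reactive glia, 4 are listed. Gfap did not pass without lidocaine replicate 2 (adjusted p = 0.0613). Cldn11 missed the threshold without lidocaine replicate 1 or 2 (adjusted p = 0.0564 to 0.0573).

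Neuronal genes were nearly missing from the table. Of 83 symbols for sensory neurons, pain and itch 5 are listed, 4 lower and 1 higher. Vip, a neuropeptide induced in injured sensory neurons, was at 6.67, 7.50 and 7.44 in IMQ and 4.87 and 4.24 in lidocaine (difference -2.65, SE 0.40, adjusted p = 0.00396), beside 1.56 ± 1.36 (SD, n = 3) in WT. The peptide Cck and tyrosine hydroxylase (Th), the catecholamine enzyme, stand only in this table. Cck was at 6.61, 5.75 and 6.09 in IMQ and 4.81 and 4.61 in lidocaine (difference -1.44, SE 0.38, adjusted p = 0.0135), and Th at 3.71, 4.74 and 3.79 in IMQ and 2.84 and 2.12 in lidocaine (difference -1.60, SE 0.50, adjusted p = 0.0226). Npr1, the receptor for natriuretic peptides, was at 9.30, 8.79 and 9.03 in IMQ and 7.85 and 7.84 in lidocaine (difference -1.19, SE 0.24, adjusted p = 0.00644). Crh, corticotropin-releasing hormone, went the other way, at 6.94, 8.05 and 6.95 in IMQ and 8.09 and 8.97 in lidocaine (difference 1.22, SE 0.44, adjusted p = 0.0342), beside 8.68 ± 0.89 (SD, n = 3) in WT. None of the 14 voltage-gated sodium channel symbols, the targets of lidocaine, is listed, and neither is any of 82 cell cycle or 21 circadian clock symbols; their levels were not analysed here. Cck and Th lost the call without lidocaine replicate 1 or 2 (adjusted p = 0.0564 to 0.118). Crh did not pass without lidocaine replicate 1 or 2 or IMQ replicate 1 or 3 (adjusted p = 0.0832 to 0.267).

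Of 7 listed ion channel genes 5 fell (71.4%) and 2 rose (28.6%), against 87.1% and 7.48% of all listed genes. Kcnk5, a background potassium channel, was at 9.41, 8.83 and 9.15 in IMQ and 7.76 and 8.21 in lidocaine (difference -1.14, SE 0.27, adjusted p = 0.0102). Kcnj16, an inward rectifier, was at 9.92, 8.73 and 9.52 in IMQ and 7.57 and 8.28 in lidocaine (difference -1.47, SE 0.41, adjusted p = 0.0155). Cacng6, a calcium channel subunit, was at 4.25, 3.47 and 3.54 in IMQ and 0 in both lidocaine libraries, at least 3.67-fold lower. Clca5, a chloride channel accessory protein listed only here, was at 3.04, 3.85 and 3.08 in IMQ and 5.05 and 4.85 in lidocaine (difference 1.62, SE 0.43, adjusted p = 0.0137), and the cation channel Trpc7 rose by 1.82. Of 24 listed solute carriers 23 fell (95.8%, median -1.72, or -1.70 with genes at 0 at their bound). The sulfate transporter Slc26a2 was at 9.54, 9.35 and 9.39 in IMQ and 7.72 and 7.81 in lidocaine (difference -1.66, SE 0.20, adjusted p = 0.00294). The steroid sulfate transporter Slc10a6 was at 7.83, 7.88 and 7.92 in IMQ and 5.79 and 6.40 in lidocaine (difference -1.78, SE 0.28, adjusted p = 0.00437). The exception was Slc26a3, a chloride and bicarbonate exchanger, at 3.57, 2.72 and 3.79 in IMQ and 5.15 and 4.40 in lidocaine (difference 1.42, SE 0.50, adjusted p = 0.0313). Without lidocaine replicate 1, 12 of the 23 passed, and without lidocaine replicate 2, 14. Kcnk5 missed the threshold without lidocaine replicate 1 (adjusted p = 0.0671). Kcnj16 lost the call without lidocaine replicate 1 or 2 (adjusted p = 0.0545 to 0.147). Clca5 did not pass without lidocaine replicate 1 or IMQ replicate 3 (adjusted p = 0.0505 to 0.064). Trpc7 missed the threshold without lidocaine replicate 1 or 2 or IMQ replicate 3 (adjusted p = 0.0528 to 0.0808). Slc26a3 lost the call without lidocaine replicate 1 or 2 or IMQ replicate 1 or 2 (adjusted p = 0.0547 to 0.158).

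Few genes were higher under lidocaine, and the matrix gene Tnn had the largest difference among the 14 whose mean reached 50 normalized counts. Tenascin N (Tnn), a matrix glycoprotein of bone and tendon, was at 5.01, 6.18 and 4.996 in IMQ and 7.67 and 11.66 in lidocaine (difference 4.27, SE 1.09, adjusted p = 0.0121), so that lidocaine replicate 2 lay 3.99 above replicate 1. Periostin (Postn), a matrix protein of healing tissue, was at 10.62, 9.48 and 10.17 in IMQ and 10.84 and 12.43 in lidocaine (difference 1.54, SE 0.54, adjusted p = 0.03). The stromelysin Mmp3 was at 5.75, 3.96 and 4.79 in IMQ and 5.91 and 6.96 in lidocaine (difference 1.60, SE 0.61, adjusted p = 0.04). The collagenase Mmp13 and the collagen chain Col1a1 stand only in this table. Mmp13 was at 8.04, 6.78 and 7.48 in IMQ and 8.13 and 9.22 in lidocaine (difference 1.24, SE 0.47, adjusted p = 0.0397). Col1a1 was at 14.97, 14.65 and 14.79 in IMQ and 15.30 and 16.33 in lidocaine (difference 1.01, SE 0.49, adjusted p = 0.0828) and did not pass. Lidocaine replicate 2 was the highest library for all 5 genes, and replicate 1 lay close to the highest IMQ library for Postn, Mmp3 and Mmp13. Of 8 listed genes of the 66 matrix symbols 5 rose, 4 of which passed, and 3 fell and passed. The last were Cilp, Pi16 (-1.69, SE 0.27) and Thbs1 (-1.20, SE 0.30). Skeletal genes split in the same way: chondroadherin (Chad) was at 7.30, 6.73 and 7.09 in IMQ and 4.19 and 3.46 in lidocaine (difference -3.21, SE 0.38, adjusted p = 0.00266), the osteoclast genes Atp6v0d2 and Oscar fell by 2.74 and 1.53, and the cartilage proteoglycan Epyc rose by 1.79 along with Mmp13. Of 48 muscle symbols Myl1 and Pygm are listed and fell by 1.85 and 1.11, and of 37 keratinocyte symbols Calml3, Krt79 and Slpi, by 3.32, 2.12 and 1.43. Postn did not pass without lidocaine replicate 2 or IMQ replicate 2 or 3 (adjusted p = 0.0569 to 0.241). Mmp3 and Mmp13 missed the threshold without lidocaine replicate 1 or 2 or IMQ replicate 2 or 3 (adjusted p = 0.0717 to 0.314). Atp6v0d2 and Calml3 lost the call without lidocaine replicate 1 (adjusted p = 0.101 to 0.102). Epyc did not pass without lidocaine replicate 2 (adjusted p = 0.0606). Pygm and Krt79 missed the threshold without lidocaine replicate 1 or 2 (adjusted p = 0.0839 to 0.134).

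The 2 listed ribosomal protein genes rose and 1 of them passed. Of 6 listed short RNAs 4 rose, 3 of which passed, and 2 fell and passed. Rpl39l, a ribosomal protein gene, did not pass (1.32, SE 0.56), and the nucleolar RNA SNORA70 fell by 1.28. The ribosomal protein gene Rpl30, only in this table, was at 9.98, 8.19 and 8.63 in IMQ and 10.56 and 10.59 in lidocaine (difference 1.64, SE 0.51, adjusted p = 0.0216). The signal recognition particle RNA Rn7sl1 was at 6.35, 6.33 and 5.52 in IMQ and 6.84 and 7.66 in lidocaine (difference 1.18, SE 0.41, adjusted p = 0.03); a second ID, Metazoa_SRP, had almost the same values, and the 2 may share reads. The 3 listed 7SK IDs did not move one way, since 2 rose (1.36 and 1.32) and 1 fell (-1.35). Each of these calls was lost on leaving out some library: the 2 that rose and Metazoa_SRP did not pass without lidocaine replicate 1 or 2 or IMQ replicate 3 (adjusted p = 0.0671 to 0.262), the first of the 2 also not without IMQ replicate 1 (adjusted p = 0.0634), and the 1 that fell did not pass without IMQ replicate 3 (adjusted p = 0.0554). Gpr165, a G protein-coupled receptor, was at 4.25, 5.33 and 3.41 in IMQ and 6.08 and 6.98 in lidocaine (difference 2.20, SE 0.63, adjusted p = 0.0169). For Rpl30 IMQ replicate 1 lay 0.58 below the nearer lidocaine value and the other IMQ libraries well below that. Serpina11, a serine protease inhibitor by family, was at 8.08, 8.08 and 8.63 in IMQ and 9.16 and 9.38 in lidocaine (difference 1.01, SE 0.26, adjusted p = 0.0127), beside 9.81 ± 1.10 (SD, n = 3) in WT. SNORA70 lost the call without lidocaine replicate 1 or IMQ replicate 1 or 3 (adjusted p = 0.0623 to 0.0909). Rpl30 and Rn7sl1 did not pass without lidocaine replicate 1 or 2 or IMQ replicate 3 (adjusted p = 0.0542 to 0.211). Gpr165 and Serpina11 missed the threshold without lidocaine replicate 1 or 2 (adjusted p = 0.0556 to 0.149).

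Many of the large increases sat at very low levels. In 13 genes all IMQ libraries were at 0, and 9 of these stand only in this table. Lyg2, a goose-type lysozyme gene, was at 0 in all IMQ libraries and 3.44 and 3.60 in lidocaine, at least 3.1-fold higher against the floor of 3 reads per library. Efcab5 was at 0 in all IMQ libraries and 3.27 and 2.72 in lidocaine, at least 2.09-fold higher. Fam159b and Lrr1, in both tables, were at least 4.78-fold and 3.26-fold higher. Lrrc6 was at 0, 1.70 and 0 in IMQ and 3.74 and 4.40 in lidocaine, Adamts18 at 0, 0 and 2.40 in IMQ and 4.37 and 2.94 in lidocaine and Sh2d1b2 at 0, 0 and 2.07 in IMQ and 3.98 and 3.73 in lidocaine, while the olfactory receptor gene Olr156 was at 0 in all IMQ libraries and 2.23 and 3.46 in lidocaine. Over the 13 genes the bound ran from 1.57 to 4.78. Conversely, 45 genes were at 0 in both lidocaine libraries, 16 of them only in this table, with bounds of 1.71 to 38.1. Adamts18 lost the call without lidocaine replicate 1 or 2 or IMQ replicate 1 (adjusted p = 0.0573 to 0.181). Sh2d1b2 did not pass without lidocaine replicate 1 or 2 (adjusted p = 0.0608 to 0.0809).

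**Figure D5:**
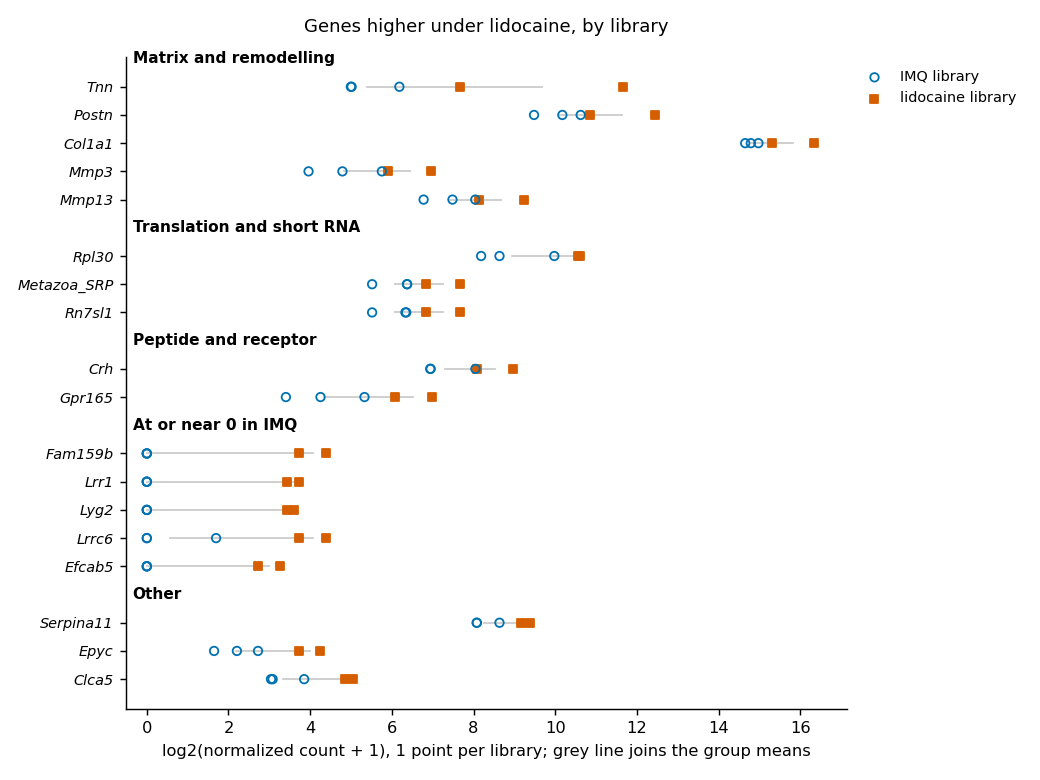
Levels of 18 genes that were higher under lidocaine, as log2(normalized count + 1) per library (open circles, IMQ; squares, lidocaine; grey lines join the group means). Lidocaine replicate 2 lies far to the right for Tnn and Postn, and Fam159b, Lrr1, Lyg2 and Efcab5 have all 3 circles at 0.

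The 215 genes absent from the IMQ against WT table differed from the other 560 in several descriptive respects; no test was made between the sets. Of the 215, 168 were lower and 47 higher, against 534 and 26, so 47 of the 73 higher genes stand only in this table. As lower 155 passed (72.1%) and as higher 35 (16.3%), against 520 (92.9%) and 23 (4.11%). The median SE of the difference was 0.43 in the set and 0.37 in the rest, and the median mean normalized count 30.8 and 137. Calls were less even: 60 of the 190 called genes of the set passed whichever library was left out, against 267 of 543. Without lidocaine replicate 1, 64 lower and 13 higher genes of the set passed. By list, 10 of 15 erythroid genes, 5 of 7 adipocyte genes and 3 of 5 genes of mast cells, basophils and eosinophils stood only in this table, and 0 of 22 T cell and 0 of 15 complement genes did, against 27.7% of all listed genes.

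Evenness also differed between gene lists. Calls that passed whichever library was left out made up 11 of 13 called B and plasma cell genes, 16 of 22 T cell genes, 12 of 18 macrophage genes and 10 of 15 complement genes. In the neutrophil list they were 4 of 19, in the meningeal list 4 of 18, in the erythroid list 4 of 15 and in the cytokine list 2 of 10. Over all listed genes the figure was 327 of 733 called genes. Of the 58 genes called higher, 13 passed whichever library was left out. A total of 119 genes have no symbol of their own in the table, 99 of them called lower. One of these, AABR07060872.1, was at 13.19, 13.31 and 13.22 in IMQ and 9.95 and 7.50 in lidocaine (difference -4.52, SE 0.66, adjusted p = 0.00373), and AABR07052519.1, only in this table, was at 6.80, 6.55 and 6.48 in IMQ and 0 in both lidocaine libraries, at least 27.7-fold lower; the files give no description of either.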

How the data were processed

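RNA of dorsal root ganglia was measured by RNA sequencing in 3 WT, 3 IMQ and 2 lidocaine samples. Per the submitters' processing notes, STAR 2.5.3a, DESeq2 and bcl2fastq were used, with no role stated. No source used here names the genome build, annotation, counter or strand. The values deposited by the authors are log2 of the normalized count plus 1. Reversed to linear values, they were whole multiples of 1 step per library (within 0.02 reads, for values up to 2000 reads), so the reads of each library were recovered. Differences were tested with limma 3.58.1 under R 4.3.3, fitting a mean-variance trend over all 775 listed genes, with Benjamini-Hochberg adjustment over them and a threshold of 0.05. A minimum mean normalized count of 1 removed 0 genes. Because the table holds only genes that the submitters selected from the same libraries, these p-values order the genes and do not estimate how many genes of the genome changed. Genes at 0 in a whole group got a bound from 3 reads per library; counting error only is covered.

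Groups come from the sample titles. Named were the 12 largest decreases and increases with a mean of 50 or more normalized counts, the 10 largest of each among genes of this table alone, the 10 largest increases at any level, up to 4 genes of each list with the smallest adjusted p, and genes said to be chosen after their values were seen. Genes in lists of fewer than 5 members, and exceptions within a list, were also named. Further list genes were named outside these rules with their values known, among them Il1b, Il1a, Tnf, Cxcl1, Cd163, Cd74, RT1-Da, Aldh1a2, Ptgds, Ctsg, Epx and Foxp3. Such genes do not stand for the rest of their lists. Members and lists were chosen with earlier results of these data known. Alternatives were other added counts, filters and thresholds, no trend, limma-voom on the recovered reads, the replicate number as a block and leaving out each library. Promoters are RefSeq sequences (GRCr8), matched to 475 members by symbol; motifs were chosen after values were seen. Some named genes are not reported here.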

Additional observations from a re-analysis of the deposited data

How the results depend on the processing

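All 127 genes that the naming rule picked kept their direction under each alternative in which they were tested. The groups of libraries did not overlap for 98.1% of all listed genes. For such genes a left-out library, another added count, filter or threshold, or no trend cannot turn the direction. The kept directions are therefore no support for the differences. With a mean normalized count of at least 50 required, 441 lower and 12 higher genes passed; among genes of this table alone 74 lower and 6 higher did, and 6 higher genes of both tables did. At an adjusted p under 0.01, 336 lower and 18 higher genes passed, 57 and 12 of them in this table alone and 279 and 6 in both. The lower counts at these 2 settings follow from fewer genes tested and from the stricter threshold. Leaving out 1 library at a time gave 364 to 644 lower and 23 to 50 higher genes, 64 to 151 and 13 to 32 in this table alone, and 300 to 493 and 9 to 18 in both tables; the lone lidocaine library left in such a fit is assumed to vary like the IMQ libraries. Added counts of 0.1 or 10, no filter, no trend and limma-voom left all these counts within 1.5 times. With the replicate number as a block 37 higher genes passed, 13 of them in both tables, and 563 lower genes; the labels do not say that the numbers pair samples, and the deviations of same-numbered samples correlated at 0.0163 and 0.0439. Samples share only a number, and the block changed 16 of 127 named calls. With 2 lidocaine libraries the spread of that group rests on 1 difference. Genes near 0 reads, 45 in the lidocaine and 13 in the IMQ libraries, have no measured fold.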
